A study of Mus musculus with 20 samples.

Results

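The Tudor domain germ granule genes followed here are 9 genes chosen by name: Tdrd1, Tdrkh, Tdrd9, Tdrd12, Tdrd5, Tdrd7, Rnf17, Stk31 and Tdrd6. They are 9 of the 23853 gene symbols common to the 3 count tables, and all 9 had a row in every table and passed the filter on low counts in every comparison. In heterozygous and in knockout cells alike, 8 of the 9 fell between embryonic day 16.5 (e16.5) and embryonic day 18.5 (e18.5), and Tdrd6 alone rose. Of all genes tested, 10.2% fell at this step in heterozygous and 17.7% in knockout cells. Of the 9 calls, 6 in heterozygous and 7 in knockout cells held in every alternative way of processing that was run. Loss of Tex15 moved none of the 9 past the test at any age.

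RNA was sequenced from male mouse germ cells, isolated by sorting for green fluorescence, at e16.5, e18.5 and postnatal day 2 (d2). The cells were Tex15+/- (heterozygous, the control, which lacks 1 copy) or Tex15-/- (knockout), with 3 libraries of each genotype at either embryonic age and 4 of each at d2, 20 in all. Strain background is given as mixed, and the labels name neither the transgene behind the fluorescence nor the deleted part of Tex15. Nothing in the labels ties replicates to separate animals. The p-values therefore measure only how far these libraries spread, which may be technical.

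Tudor domains are folded protein modules that bind methylated arginine or lysine. In male germ cells a family of multi-Tudor proteins binds the methylated arginines of PIWI proteins and gathers them, with helicases and nucleases, into cytoplasmic granules: the intermitochondrial cement and piP-bodies of fetal prospermatogonia, and the chromatoid body after meiosis. PIWI proteins carry piRNAs, small RNAs that direct the cleavage of transposon transcripts and the methylation of transposon DNA in fetal male germ cells.

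Each library held 14.3 to 31.5 M (mega) counts, and genes took 7.78 to 14.2 M of them. Tex15 was read first, as the check on genotype, and lay at 2103, 1955 and 1727 CPM (gene counts scaled to a mega of gene counts per library with TMM factors over all 20 libraries) in heterozygous cells at e16.5, then 1291, 1267 and 1769.5 at e18.5, and finally 884, 837, 1013 and 612 at d2. In knockout cells it lay at 3.56, 4.02 and 5.34 CPM at e16.5, then 1.70, 4.41 and 2.70 at e18.5, and 2.04, 102, 2.47 and 2.61 at d2. The library labelled Tex15-/- replicate 2 at d2 thus held 101.5 CPM, from 799 counts, and call counts and genotype effects at d2 are given with and without it. With it the d2 log2 fold change of Tex15 was -4.97 (adjusted p = 0.167, edgeR), and without it -8.45 (adjusted p = 3.1e-14). Germ cell markers summed to 2781 to 4528 CPM in every library (8 of 8 genes with a row). Markers of other cell types were present: 10 stroma genes summed to 150.1 to 362 CPM, 7 Leydig genes to 13.8 to 113 CPM (Insl3 at 0 in all libraries) and 7 red blood cell genes to 3.28 to 21.3 CPM (5 haemoglobin genes at 0).

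The members differed widely in level. Per kilobase of exon, from gene models of GENCODE M21, Tdrd1 was highest in all 6 groups, at 368 ± 14.2 CPM per kb (SD, n = 3) in heterozygous cells at e16.5, 247 ± 27.9 (n = 3) at e18.5 and 124 ± 6.83 (n = 4) at d2. Tdrd6 was lowest in all 6 groups, at 0.706 ± 0.562, 4.06 ± 0.851 and 4.17 ± 1.07 CPM per kb. In heterozygous cells at e16.5 the order between them was Stk31 (191 ± 15.1 CPM per kb), Tdrd9 (170.3 ± 7.25), Rnf17 (119 ± 11.1), Tdrd5 (45.7 ± 12.9), Tdrd7 (44.3 ± 4.30), Tdrkh (18.9 ± 5.44) and Tdrd12 (17.1 ± 4.44). The libraries of Tdrd5 and Tdrd7 overlapped there, as did those of Tdrkh and Tdrd12, and the other neighbours did not. Tdrd1 made up 35.6% to 45.8% of the summed CPM of the 9 genes across the 20 libraries. That sum itself was 4713 to 5262 CPM in heterozygous and 5464 to 5808 CPM in knockout libraries at e16.5, 3071 to 3341 and 3160 to 3857 CPM at e18.5, and 1611 to 1897 and 1809 to 2039 CPM at d2.

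**Figure D1:**
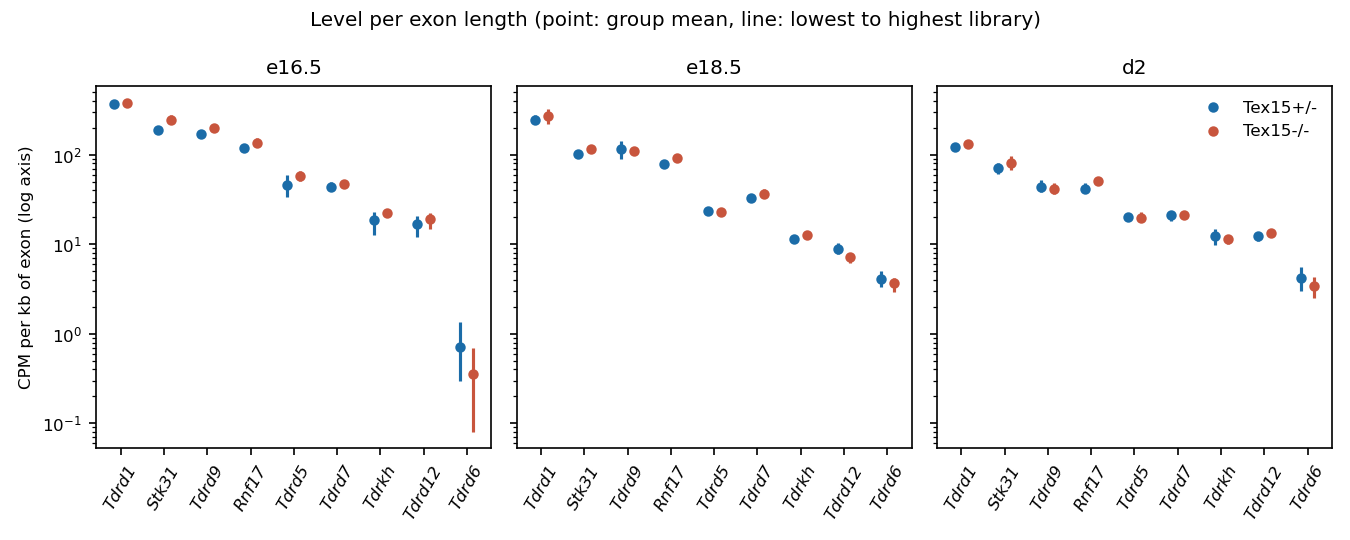
Level of each Tudor gene per exon length (CPM per kb, log axis) at the 3 ages, with heterozygous groups in blue and knockout groups in red; points are group means and lines run from the lowest to the highest library. Tdrd1 is highest and Tdrd6 lowest in every group, with Tdrd6 at 0.706 CPM per kb in heterozygous cells at e16.5 but 4.06 by e18.5.

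Age was compared within each genotype in 1 edgeR fit of all 20 libraries. In heterozygous cells all 9 members changed from e16.5 to e18.5, 8 lower and 1 higher, where 17.8% of the 18619 genes tested were called (7.63% higher, 10.2% lower). In knockout cells the counts were again 8 lower and 1 higher, against 35.1% of genes called (17.5% higher, 17.7% lower). Between e18.5 and d2, 6 of the 9 were called in each genotype, 5 lower and 1 higher, against 51.2% of genes in heterozygous (24.1% higher, 27% lower) and 55% in knockout cells (25.3% higher, 29.7% lower). Over the whole span in heterozygous cells, e16.5 to d2, 8 of 9 fell and Tdrd6 rose, against 43.1% of genes called (20.5% higher, 22.7% lower). Of these 8, the calls of Tdrd12 and Tdrkh ended in some alternatives. The median log2 fold change of the 9 was -0.60, -0.55 and -1.19 in these 3 heterozygous comparisons, where the median over all genes tested was 0.04, -0.08 and -0.03. In knockout cells it was -0.83 and -0.50, beside 0.09 and -0.11. Germ cell markers moved at the same step: of 8, 4 fell and 1 rose in heterozygous cells (median log2 fold change -0.66) and 6 fell and 0 rose in knockout cells (median -1.17). Stroma markers moved the other way in knockout cells, with 6 of 10 called higher and 0 lower (median 1.32), and had 1 higher and 1 lower in heterozygous cells (median 0.31). Their part in the falls of the Tudor genes was not tested. The 3 ages stand in 3 separate count tables, so age and any difference in how the tables or libraries were made cannot be told apart. In sorted bulk RNA, fewer cells of a type and less RNA per cell cannot be told apart either.

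**Figure D2:**
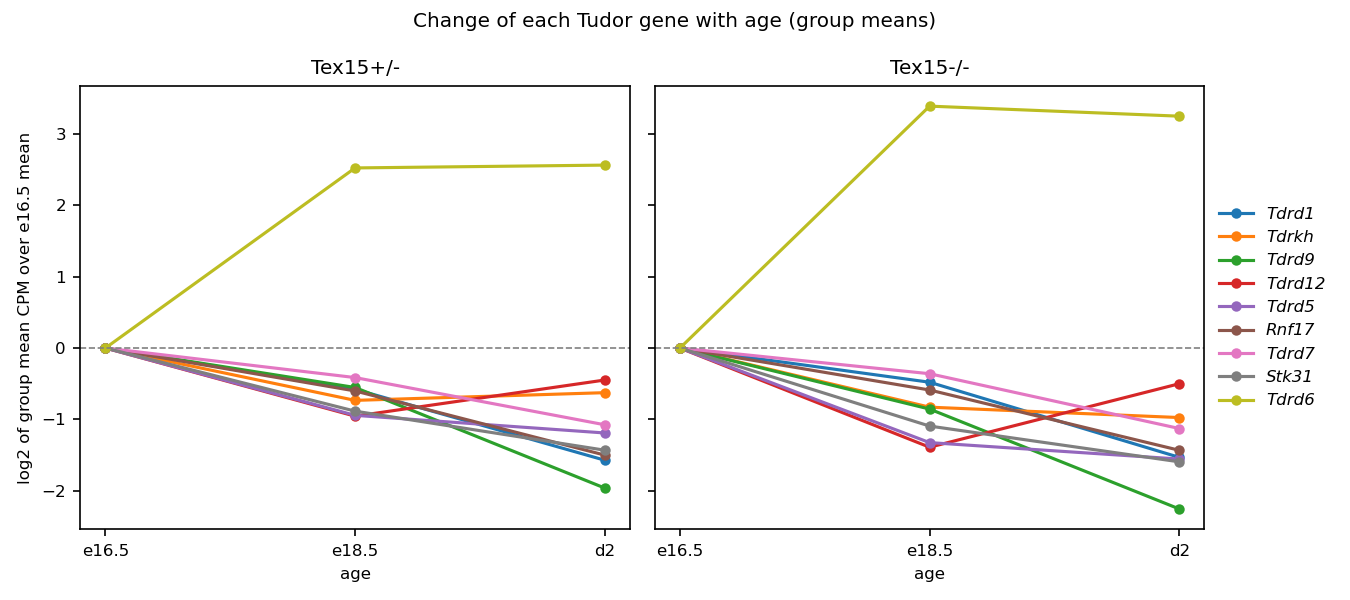
Change of each Tudor gene with age, as the log2 of its group mean CPM over its own e16.5 mean, in heterozygous (left) and knockout (right) cells. In both panels 8 lines lie below 0 and that of Tdrd6 lies above 2, and Tdrd12 is the only one of the 8 that was called higher at d2 than at e18.5.

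Genotype was compared within each age, in a fit of that age alone. Of the 9 members 0 were called at e16.5, where 0.0061% of 16384 genes were called (Tex15 alone). Again 0 were called at e18.5, against 2.33% of 18075 genes (2.06% higher, 0.271% lower), and 0 at d2, against 2.8% of 15343 genes (2.03% higher, 0.776% lower). DESeq2 and limma voom with quality weights also called 0 at each age. At an unadjusted p under 0.05, all 3 tools gave 1 member at e16.5 (Stk31), 0 at e18.5 and 1 at d2 (Rnf17), and in edgeR 7.73%, 11.3% and 16.2% of all genes were under that value. The median log2 fold change of the 9, knockout over heterozygous, was 0.18, 0.14 and 0.03 at the 3 ages in turn, beside -0.01, -0.01 and -0.02 over all genes tested. The e16.5 value was not particular to the 9. At that age the median was 0.22 for other piRNA pathway genes, 0.20 for other Tudor domain genes and 0.23 for germ cell markers. It was -1.02 for stroma, -0.62 for Sertoli, -1.61 for Leydig and -0.24 for endothelial markers. The cause of these shifts was not tested.

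**Figure D3:**
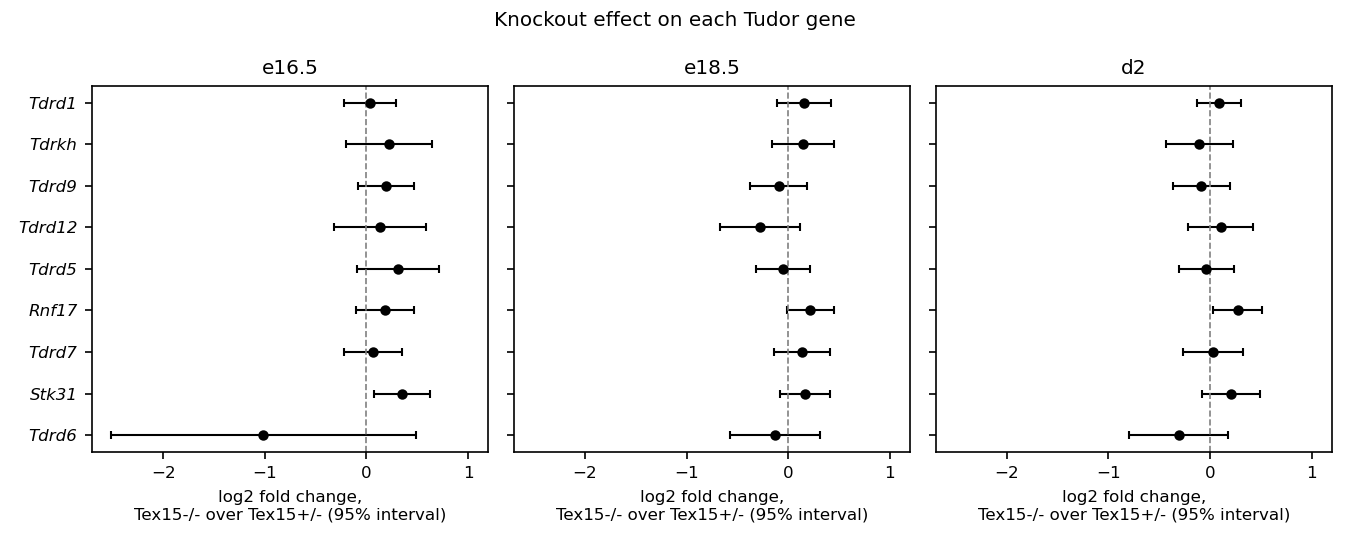
Log2 fold change of each Tudor gene, Tex15-/- over Tex15+/-, with its 95% interval from the edgeR fit of each age. All intervals include 0 except those of Stk31 at e16.5 and Rnf17 at d2, and no gene passed the adjusted threshold.

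Tdrd1 and Tdrkh act at mitochondria. Tdrd1 encodes a multi-Tudor scaffold of the intermitochondrial cement that binds the PIWI protein MILI, and Tdrkh a membrane-anchored protein that brings PIWI proteins to the enzymes that trim piRNAs. In heterozygous cells Tdrd1 measured 2092, 1952 and 1966 CPM at e16.5, then 1501, 1199 and 1326 at e18.5, and 632, 666, 675 and 722 at d2. Knockout libraries measured 2091, 2071 and 2089 CPM at e16.5, then 1515, 1205 and 1765 at e18.5, and 702, 695, 790.4 and 694 at d2. The libraries of each age lay below all those of the age before, in both genotypes, and the 2 genotypes overlapped at every age. Separate age groups were common. From e16.5 to e18.5 all 9 members had them in each genotype, as did 36.4% of all genes tested in heterozygous and 55.1% in knockout cells. From e18.5 to d2 it was 7 members in heterozygous and 6 in knockout cells, against 51.5% and 55.5% of genes. In heterozygous cells Tdrd1 fell 1.49-fold (95% interval 1.25 to 1.78, adjusted p = 0.0017) from e16.5 to e18.5 and 1.99-fold (95% interval 1.70 to 2.34, adjusted p = 8.1e-08) from e18.5 to d2, in edgeR. In knockout cells it fell 1.39-fold (95% interval 1.17 to 1.66, adjusted p = 0.00352) and then 2.07-fold (95% interval 1.77 to 2.44, adjusted p = 2.2e-08). The first of these knockout calls ended when gene totals set the scale (adjusted p = 0.0781). Knockout over heterozygous, the log2 fold change of Tdrd1 was 0.03 (95% interval -0.22 to 0.29) at e16.5, 0.15 (95% interval -0.11 to 0.42) at e18.5 and 0.09 (95% interval -0.12 to 0.31) at d2.

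The 250 bases upstream of the first Tdrd1 start site (RefSeq, GRCm38.p6, chr19:56825959-56826208, plus strand) are shown because Tdrd1 fell at each step; the capitals mark CACGTG, the E-box, a motif that reads the same on both strands.
Tdrd1: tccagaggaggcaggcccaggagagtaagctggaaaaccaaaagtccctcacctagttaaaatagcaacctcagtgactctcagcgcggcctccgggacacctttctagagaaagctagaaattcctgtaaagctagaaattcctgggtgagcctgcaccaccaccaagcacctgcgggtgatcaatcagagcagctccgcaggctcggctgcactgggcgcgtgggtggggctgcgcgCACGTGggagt
The same letters stand upstream of 2 of the 3 listed Tdrd1 start sites, whose windows overlap.

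Tdrkh measured 129, 142 and 78.3 CPM at e16.5, then 67.7, 76.6 and 65.3 at e18.5, and 60.2, 72.0, 90.4 and 78.6 at d2 in heterozygous cells. It measured 138, 151 and 124 CPM at e16.5, then 72.1, 75.6 and 84.8 at e18.5, and 62.1, 66.1, 73.0 and 78.9 at d2 in knockout cells. Heterozygous replicate 3 at e16.5 lay well below the other libraries of its group, and d2 overlapped e18.5 in both genotypes. That replicate was also the lowest of its group for Tdrd5, Tdrd7, Tdrd12, Rnf17 and Stk31, but not for Tdrd1 and Tdrd9. From e16.5 to e18.5 Tdrkh fell 1.66-fold (95% interval 1.29 to 2.15, adjusted p = 0.00565) in heterozygous and 1.78-fold (95% interval 1.37 to 2.29, adjusted p = 9.1e-04) in knockout cells, in edgeR. From e18.5 to d2 it did not pass, with a log2 fold change of 0.11 (95% interval -0.24 to 0.45) in heterozygous and -0.14 (95% interval -0.49 to 0.20) in knockout cells. The heterozygous call from e16.5 to e18.5 ended without heterozygous e16.5 replicate 2 (adjusted p = 0.0709, edgeR). That from e16.5 to d2 ended without the same library (adjusted p = 0.053) and with totals of genes and repeats as the scale (log2 fold change -0.24, adjusted p = 0.289). Knockout over heterozygous, Tdrkh had a log2 fold change of 0.22 (95% interval -0.20 to 0.64) at e16.5, 0.15 (95% interval -0.16 to 0.45) at e18.5 and -0.11 (95% interval -0.44 to 0.22) at d2. In the annotation Tdrkh shares 2255 exon bases, 36.7% of its exon length, with the antisense gene Oaz3. Whether counting used strand is not given in the sources used here, and Oaz3 had its own row at 1.89 to 6.63 CPM.

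Tdrd9 and Tdrd12 encode Tudor proteins with RNA helicase domains. Tdrd9 works with the nuclear PIWI protein MIWI2 in fetal germ cells, and Tdrd12 is needed to load MIWI2 with secondary piRNAs. In heterozygous cells Tdrd9 measured 885, 918 and 963 CPM at e16.5, then 633, 766 and 487 at e18.5, and 207, 214, 239 and 286 at d2. It measured, in knockout cells, 1184, 976 and 1043 CPM at e16.5, then 583, 585 and 603 at e18.5, and 201, 259, 235 and 198 at d2. No library of a later age reached any library of an earlier one, and the genotypes were apart at e16.5, with knockout libraries higher, but overlapped at e18.5 and d2. Of the members, 2 (Tdrd9 and Stk31) had such separate genotype groups at e16.5, 1 (Rnf17) at e18.5 and 0 at d2, where 13.0%, 16.4% and 9.54% of all genes tested had them. Tdrd9 fell 1.47-fold (95% interval 1.19 to 1.81, adjusted p = 0.00975) from e16.5 to e18.5 and 2.66-fold (95% interval 2.19 to 3.23, adjusted p = 6.2e-09) from e18.5 to d2 in heterozygous cells, in edgeR. In knockout cells it fell 1.81-fold (95% interval 1.47 to 2.23, adjusted p = 8.5e-05) and 2.64-fold (95% interval 2.17 to 3.21, adjusted p = 4.7e-09). From e16.5 to d2 in heterozygous cells the fall of Tdrd9 was 3.90-fold (95% interval 3.20 to 4.74, adjusted p = 1.3e-11), the largest among the 9 in this fit. The first heterozygous call ended with gene totals as the scale and without heterozygous e18.5 replicate 3, with an adjusted p of up to 0.0845. The knockout effect on Tdrd9 was 0.19 (95% interval -0.09 to 0.47) at e16.5, -0.09 (95% interval -0.37 to 0.18) at e18.5 and -0.09 (95% interval -0.37 to 0.20) at d2.

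The 250 bases upstream of Tdrd9 (RefSeq, GRCm38.p6, chr12:111971309-111971558, plus strand) hold CACGTG at 2 places, in capitals, and are shown beside the deepest fall of the group.
Tdrd9: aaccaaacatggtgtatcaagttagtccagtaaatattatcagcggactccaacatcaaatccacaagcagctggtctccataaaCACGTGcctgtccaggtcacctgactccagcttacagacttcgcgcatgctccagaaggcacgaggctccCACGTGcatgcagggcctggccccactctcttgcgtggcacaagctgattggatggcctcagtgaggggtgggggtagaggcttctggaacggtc

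Tdrd12 followed another course. It measured 89.9, 79.8 and 52.6 CPM at e16.5, then 33.5, 36.1 and 45.0 at e18.5, and 52.4, 59.9, 57.9 and 47.0 at d2 in heterozygous cells and 63.9, 88.0 and 96.3 CPM at e16.5, then 33.5, 34.5 and 26.7 at e18.5, and 57.0, 57.1, 64.7 and 55.2 at d2 in knockout cells. Every d2 library lay above every e18.5 library of its genotype, and d2 overlapped e16.5 in both genotypes. From e16.5 to e18.5 Tdrd12 fell 1.94-fold (95% interval 1.47 to 2.56, adjusted p = 0.00119) in heterozygous and 2.62-fold (95% interval 1.98 to 3.47, adjusted p = 8.7e-06) in knockout cells, in edgeR. Between e18.5 and d2 it rose 1.42-fold (95% interval 1.10 to 1.84, adjusted p = 0.0219) in heterozygous and 1.85-fold (95% interval 1.42 to 2.41, adjusted p = 2.4e-04) in knockout cells. The heterozygous rise ended with median-ratio size factors and without heterozygous e18.5 replicates 1 or 2 or heterozygous d2 replicate 2, with an adjusted p of up to 0.115. The heterozygous difference between e16.5 and d2, 1.36-fold (95% interval 1.06 to 1.76, adjusted p = 0.0442) lower, ended in 10 of 16 alternatives (adjusted p of up to 0.836). Knockout over heterozygous, Tdrd12 had a log2 fold change of 0.14 (95% interval -0.32 to 0.59) at e16.5, -0.28 (95% interval -0.67 to 0.11) at e18.5 and 0.10 (95% interval -0.22 to 0.43) at d2.

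Tdrd5 and Tdrd7 encode proteins with LOTUS domains beside their Tudor domains, found in nuage and the chromatoid body. Tdrd5 measured 412, 305 and 234 CPM at e16.5, then 163, 179.5 and 152 at e18.5, and 131, 126, 150.4 and 149 at d2 in heterozygous cells. It measured 349, 463 and 387 CPM at e16.5, then 159, 149.7 and 169 at e18.5, and 133, 124, 128 and 158 at d2 in knockout cells. All e16.5 libraries lay above all later ones, and the genotypes overlapped at every age. Tdrd5 fell 1.92-fold (95% interval 1.53 to 2.41, adjusted p = 2.2e-04) from e16.5 to e18.5 in heterozygous cells and 2.51-fold (95% interval 1.99 to 3.15, adjusted p = 1.2e-06) in knockout cells, in edgeR. After that it did not pass: from e18.5 to d2 its log2 fold change was -0.25 (95% interval -0.55 to 0.06) in heterozygous and -0.23 (95% interval -0.53 to 0.08) in knockout cells. An antisense gene, 4930518J20Rik, overlaps 2.54% of the Tdrd5 exon bases. The knockout effect on Tdrd5 was 0.31 (95% interval -0.09 to 0.72) at e16.5, -0.05 (95% interval -0.32 to 0.21) at e18.5 and -0.04 (95% interval -0.31 to 0.23) at d2.

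The 250 bases upstream of Tdrd5 (RefSeq, GRCm38.p6, chr1:156303349-156303598, minus strand) held 40 CpG dinucleotides, the highest number among the 13 member start sites; the capitals mark the E2F motif GCGGGAA, read here on the other strand.
Tdrd5: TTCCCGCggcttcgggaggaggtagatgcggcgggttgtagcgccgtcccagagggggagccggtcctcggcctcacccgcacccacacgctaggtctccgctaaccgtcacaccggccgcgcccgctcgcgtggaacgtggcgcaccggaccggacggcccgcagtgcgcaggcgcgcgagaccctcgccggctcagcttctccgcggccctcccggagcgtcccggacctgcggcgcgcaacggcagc

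Tdrd7 changed less than the others at the first step. In heterozygous cells it measured 169, 194 and 162 CPM at e16.5, then 132, 136 and 126 at e18.5, and 72.5, 89.9, 89.2 and 80.9 at d2. Knockout libraries measured 170.1, 205 and 183 CPM at e16.5, then 131, 139.9 and 163 at e18.5, and 83.4, 86.7, 92.4 and 77.9 at d2. Libraries of each age lay below those of the age before in both genotypes, with close neighbours at e16.5 and e18.5 in knockout cells. From e16.5 to e18.5 Tdrd7 fell 1.33-fold (95% interval 1.10 to 1.61, adjusted p = 0.0308) in heterozygous and 1.28-fold (95% interval 1.06 to 1.55, adjusted p = 0.0362) in knockout cells, in edgeR. These 2 calls ended in 9 of 15 and 7 of 15 alternatives, among them 5 and 4 of the fits that left out 1 library, with an adjusted p of up to 0.195 and 0.434. From e18.5 to d2 it fell 1.58-fold (95% interval 1.33 to 1.89, adjusted p = 8.6e-05) in heterozygous and 1.70-fold (95% interval 1.43 to 2.03, adjusted p = 1.0e-05) in knockout cells. The heterozygous one of these calls ended with totals of genes and repeats as the scale (log2 fold change -0.32, adjusted p = 0.0707). Knockout over heterozygous, Tdrd7 had a log2 fold change of 0.06 (95% interval -0.22 to 0.35) at e16.5, 0.14 (95% interval -0.14 to 0.41) at e18.5 and 0.03 (95% interval -0.26 to 0.32) at d2.

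Rnf17 encodes a protein with a RING finger and several Tudor domains, known to restrain the ping-pong cycle of piRNA production in the male germ line, and Stk31 a Tudor protein with a kinase-like domain that binds the PIWI protein MIWI. Rnf17 measured 811, 736 and 672 CPM at e16.5, then 456, 494 and 512 at e18.5, and 232, 251, 305 and 257 at d2 in heterozygous cells. It measured 803, 962 and 795 CPM at e16.5, then 524, 568 and 611 at e18.5, and 317, 304, 321 and 323 at d2 in knockout cells. The knockout libraries lay above the heterozygous ones at e18.5 without overlap, and at d2 heterozygous replicate 3 overlapped a knockout group of narrow spread. Rnf17 fell 1.52-fold (95% interval 1.28 to 1.80, adjusted p = 0.00111) and then 1.86-fold (95% interval 1.59 to 2.19, adjusted p = 3.4e-07) in heterozygous cells, in edgeR. In knockout cells it changed by a log2 fold change of -0.59 (adjusted p = 5.4e-04) and then fell 1.80-fold (95% interval 1.53 to 2.11, adjusted p = 6.3e-07). These 4 calls held in every alternative. The knockout effect on Rnf17 was 0.18 (95% interval -0.10 to 0.47) at e16.5, 0.22 (95% interval -0.01 to 0.45) at e18.5 and 0.27 (95% interval 0.03 to 0.51) at d2, with adjusted p values of 0.707, 0.482 and 0.234 in edgeR. Without the library labelled Tex15-/- replicate 2, the d2 effect was 0.29 with an adjusted p of 0.212.

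Stk31 measured 671, 605 and 576 CPM at e16.5, then 319.9, 349 and 334 at e18.5, and 198, 253, 259.6 and 205 at d2 in heterozygous cells. It measured 766, 890.0 and 746 CPM at e16.5, then 339, 373 and 414 at e18.5, and 235, 218, 311 and 297 at d2 in knockout cells. Knockout libraries were higher at e16.5 without overlap, and the genotypes overlapped at e18.5 and d2. Stk31 fell 1.85-fold (95% interval 1.51 to 2.26, adjusted p = 1.2e-04) from e16.5 to e18.5 and 1.46-fold (95% interval 1.21 to 1.76, adjusted p = 0.00112) from e18.5 to d2 in heterozygous cells, in edgeR. In knockout cells it fell 2.13-fold (95% interval 1.74 to 2.61, adjusted p = 2.9e-06) and 1.42-fold (95% interval 1.17 to 1.71, adjusted p = 0.00217). The later fall was not called in either genotype when totals of genes and repeats set the scale (adjusted p of 0.245 and 0.196). Knockout over heterozygous, Stk31 had a log2 fold change of 0.35 (95% interval 0.08 to 0.63) at e16.5, 0.16 (95% interval -0.08 to 0.41) at e18.5 and 0.21 (95% interval -0.08 to 0.49) at d2, with adjusted p values of 0.629, 0.679 and 0.483 in edgeR. Without the library labelled Tex15-/- replicate 2, the d2 effect was 0.29 with an adjusted p of 0.272.

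The 250 bases upstream of the first Stk31 start site (RefSeq, GRCm38.p6, chr6:49395289-49395538, plus strand) are shown as the third member promoter with CACGTG, again in capitals.
Stk31: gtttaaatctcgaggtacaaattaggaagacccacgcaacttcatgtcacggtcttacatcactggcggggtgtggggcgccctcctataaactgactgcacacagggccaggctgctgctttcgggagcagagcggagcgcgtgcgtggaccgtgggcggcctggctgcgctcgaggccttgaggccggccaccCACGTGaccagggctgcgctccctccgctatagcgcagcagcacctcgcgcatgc
Promoter entries matched 7 of the 9 members, with 13 start sites, and Tdrd6 and Rnf17 had none. CACGTG stood in 5 of the 13 member windows, which belong to 3 genes and in part overlap, and in 6.02% of all 32851 promoter windows of the same length, and GCGGGAA (Tdrd5) in 3.82%. The other motifs searched, on both strands and chosen with earlier results known, were CAGTTG (11.1% of all, Tdrd7), CCAAT (33.8%, Tdrd9 and Tdrkh) and GGGCGG (32.7%, Stk31, Tdrd12, Tdrd7 and Tdrkh). TAACGG (2.18%), TGACGTCA (1.55%), TGACGT (6.47%, which lies within TGACGTCA) and GTTGCC (10.4%) matched no member window. The 13 windows held a median of 19 CpG dinucleotides, and all windows a median of 6. CACGTG itself holds a CpG, and its share over all windows was not matched for CpG number. Such matches describe letters only. Tdrd7, which also fell at each step, had no CACGTG in its windows, and a link between motif and course with age was not tested.

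Tdrd6 encodes a large multi-Tudor protein best known from the chromatoid body of spermatids and late spermatocytes. In heterozygous cells it measured 3.36, 2.09 and 9.51 CPM at e16.5, then 35.2, 27.5 and 23.4 at e18.5, and 27.0, 21.1, 30.8 and 39.1 at d2. It measured, in knockout cells, 4.95, 2.01 and 0.566 CPM at e16.5, then 28.7, 29.4 and 20.8 at e18.5, and 17.9, 23.9, 23.3 and 30.4 at d2. At e16.5 these levels rested on 7 to 92 counts per library, and at the later ages on 167 to 514. All e16.5 libraries of both genotypes were lower than every later library, heterozygous replicate 3 was the highest at e16.5 and knockout replicate 3 the lowest, and e18.5 and d2 overlapped. Tdrd6 rose 5.74-fold (95% interval 2.89 to 11.4, adjusted p = 9.5e-04) from e16.5 to e18.5 in heterozygous cells and 10.5-fold (95% interval 5.09 to 21.7, adjusted p = 3.5e-05) in knockout cells, in edgeR. These are log2 fold changes of 2.52 and 3.39. Without heterozygous e16.5 replicate 3 the first was 3.38, and with voom 3.35, and without knockout e16.5 replicate 1 the second was 4.32; the rise was called in every alternative. Between e18.5 and d2 the log2 fold change was 0.04 (95% interval -0.81 to 0.88) in heterozygous and -0.14 (95% interval -0.98 to 0.71) in knockout cells. The knockout effect on Tdrd6 was -1.01 (95% interval -2.51 to 0.48) at e16.5, -0.13 (95% interval -0.57 to 0.31) at e18.5 and -0.31 (95% interval -0.79 to 0.18) at d2, and at e16.5 it ran from -1.98 to -0.15 when 1 library was left out. The e16.5 interval reaches from a 5.71-fold lower to a 1.40-fold higher level in knockout cells.

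**Figure D4:**
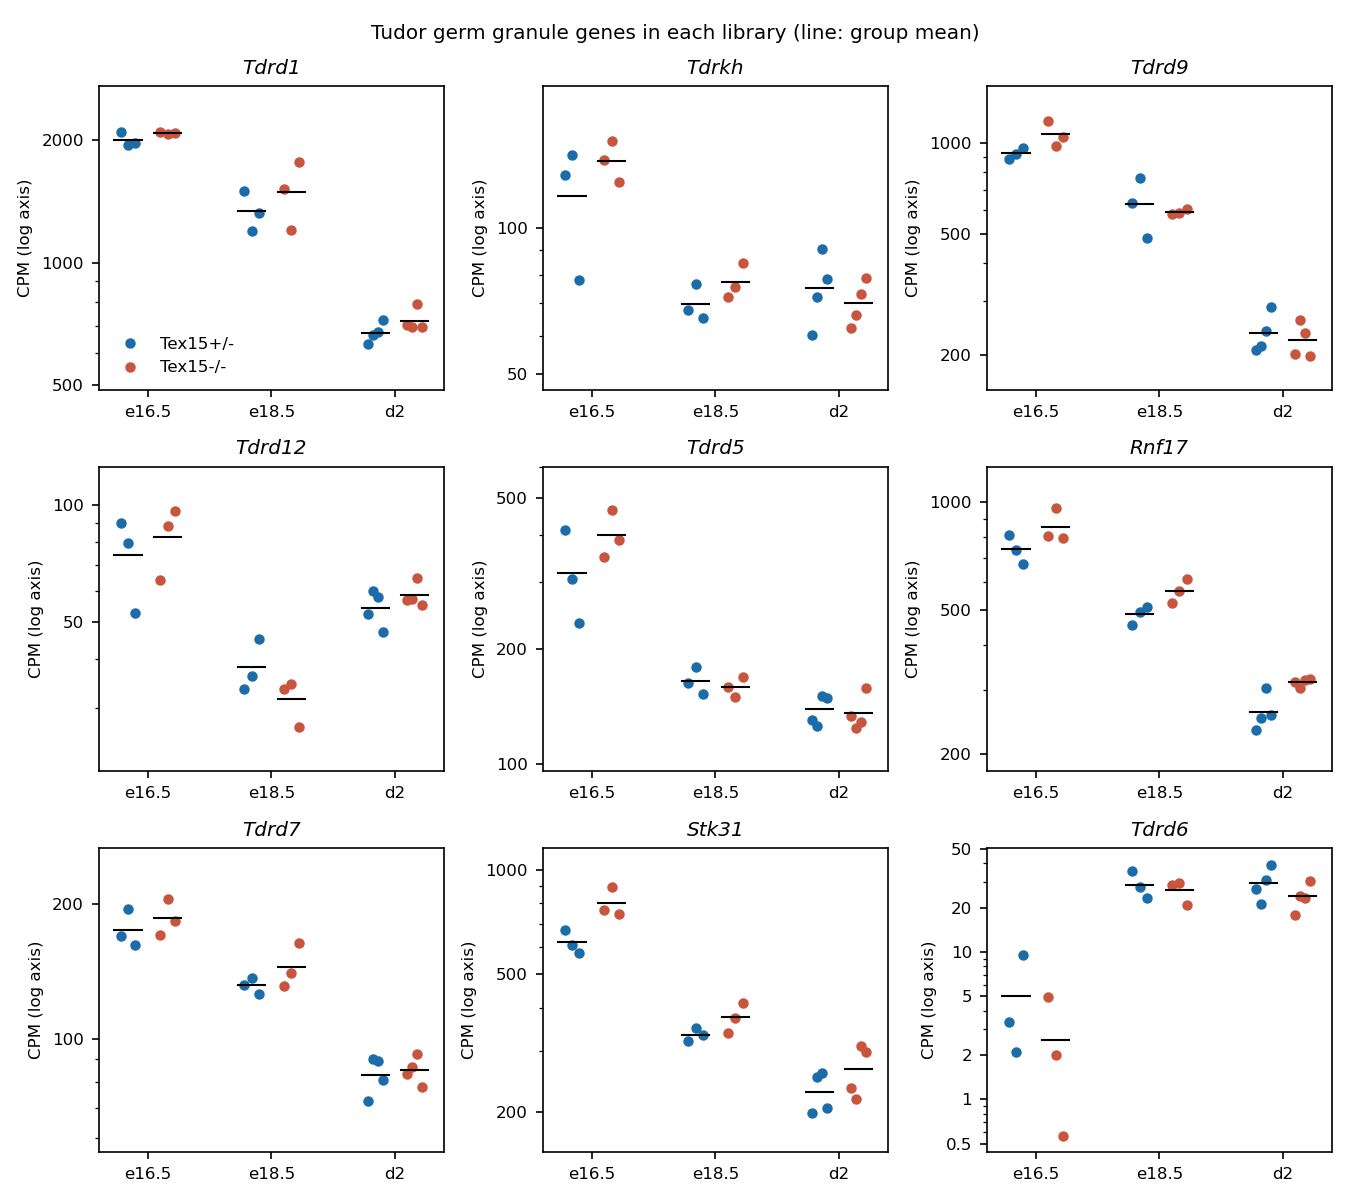
CPM of the 9 Tudor genes in each of the 20 libraries (log axis), by age, with heterozygous libraries in blue and knockout libraries in red; black lines are group means. Tdrd6 lies at 0.566 to 9.51 CPM at e16.5 and at 17.9 to 39.1 CPM at the later ages, while the other 8 genes have the highest group mean of each genotype at e16.5.

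Whether the course with age differed between genotypes was tested as an interaction. Of the 9 members 0 were called for e16.5 to e18.5, where 0.0967% of genes were called (0.0645% higher, 0.0322% lower). For e18.5 to d2 it was 0, against 0.526% (0.354% higher, 0.172% lower), and for e16.5 to d2 it was 0, against 0.8% (0.709% higher, 0.0913% lower). At an unadjusted p under 0.05 edgeR and DESeq2 gave 0 members each time, and voom gave 2 for e16.5 to e18.5 (Tdrd5 and Tdrd9) and 0 for the others. The differences in log2 fold change ran from -0.43 (Tdrd12) to 0.87 (Tdrd6) for e16.5 to e18.5, from -0.25 (Tdrkh) to 0.38 (Tdrd12) for e18.5 to d2, and from -0.36 (Tdrd5) to 0.70 (Tdrd6) for e16.5 to d2. The 95% interval for Tdrd6 in the first of these was -0.52 to 2.26, and that for Tdrd1, the best counted, -0.25 to 0.45. Leaving out the library labelled Tex15-/- replicate 2 at d2, 0 were called in the interactions with d2, 0 in the d2 genotype comparison, and 6 (5 lower, 1 higher) from e18.5 to d2 in knockout cells. Without it the d2 genotype effect (log2) was 0.11 for Tdrd1, -0.08 for Tdrkh, -0.17 for Tdrd9 (-0.09 with it), 0.11 for Tdrd12, 0.0032 for Tdrd5 (-0.04 with it), 0.02 for Tdrd7 and -0.31 for Tdrd6.

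Likeness between courses was measured as the root mean square (RMS) difference of the 6 group means of log2 CPM, each gene centred on its own mean. Among the 9, Tdrd1 and Rnf17 were nearest (0.09 log2 units), followed by Tdrd5 and Stk31 (0.15). Tdrd6 stood 1.90 to 2.26 from all others, and Tdrd12 lay nearest to Tdrkh, at 0.33. Among 9575 other genes whose log2 CPM averaged at least 3, those nearest to Tdrd6 were Tcerg1l (0.35), St8sia6 (0.44) and Tpm2 (0.45). Nearest to Tdrd9 were Ppp2r1a (0.11), Zcchc14 (0.11) and Mns1 (0.11), and nearest to Stk31 were Aqr (0.07), Smc1a (0.08) and D5Ertd579e (0.08). These 3 members have the widest range of group means. The values rest on 6 group means that share libraries and depth, and are a description.

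Other piRNA pathway genes were read beside the members, 17 of 18 listed having a row. With loss of Tex15, 0 of 17 were called at e16.5 and at d2, and 1 fell at e18.5: Gtsf1, a zinc finger partner of PIWI proteins (log2 fold change -1.61, adjusted p = 5.6e-06, edgeR). Of all genes tested, 0.0061% were called at e16.5 and 2.8% at d2, and 0.271% fell at e18.5. Gtsf1 was also the only one of the 17 with a called interaction, with differences of -2.13 (adjusted p = 2.0e-05) from e16.5 to e18.5, 1.19 (adjusted p = 0.00886) from e18.5 to d2 and -0.94 (adjusted p = 0.0323) from e16.5 to d2. The shares of all genes called in these interactions were 0.0967%, 0.526% and 0.8%. From e16.5 to e18.5, 9 of 17 fell and 0 rose in heterozygous cells, and 14 of 17 fell and 0 rose in knockout cells. Of all genes tested, 10.2% fell and 7.63% rose in heterozygous cells, and 17.7% fell and 17.5% rose in knockout cells. The 3 with the smallest p in heterozygous cells were Asz1, a mitochondrial partner of the granules (log2 fold change -1.25, adjusted p = 3.8e-06), Morc1, a repressor of transposons (-1.15, adjusted p = 2.6e-06), and Pnldc1, the piRNA trimmer (-1.10, adjusted p = 1.3e-04). Between e18.5 and d2 the list split, with 4 higher and 8 lower in heterozygous and 7 higher and 8 lower in knockout cells. Over all genes tested, the shares were 24.1% higher and 27% lower in heterozygous, and 25.3% and 29.7% in knockout cells. Piwil4, which encodes MIWI2, fell in both (log2 fold changes -1.55 and -2.10), and Wdr77, a subunit of the arginine methyltransferase complex that marks PIWI proteins for Tudor binding, rose in both (1.41 and 1.86). Asz1 rose in both as well (0.86, adjusted p = 2.3e-05, and 1.42, adjusted p = 1.3e-08). The list's median log2 fold change was -0.54 and -0.24 in the 2 heterozygous steps.

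Other Tudor domain genes, which act mostly on chromatin or in RNA splicing, gave 22 genes with a row in all tables of 24 listed. Loss of Tex15 left 0 of them called at each age. From e16.5 to e18.5, 7 fell in heterozygous and 11 in knockout cells, and 0 rose. Of all genes tested, 10.2% and 17.7% fell, and 7.63% and 17.5% rose. The leading genes were the histone methyltransferase Setdb1 (log2 fold change -0.81, adjusted p = 0.00185, edgeR), the DNA repair factor Trp53bp1 (-0.59, adjusted p = 0.00276) and the nuclease Snd1 (-0.67, adjusted p = 0.00667) in heterozygous cells, and Phf20 (-1.74, adjusted p = 3.6e-06) in knockout cells. From e18.5 to d2, 7 rose and 5 fell in heterozygous, and 9 rose and 5 fell in knockout cells. Of all genes tested, 24.1% rose and 27% fell at this step in heterozygous cells. In knockout cells 25.3% rose and 29.7% fell. Uhrf1, the cofactor of maintenance DNA methylation, had the smallest p in both genotypes and rose (log2 fold changes 3.97 and 3.97), as did Akap1, a mitochondrial anchor protein with a Tudor domain (1.94 and 1.97). In heterozygous and knockout cells alike Tdrd3 fell (-1.20, adjusted p = 7.8e-07, and -0.75, adjusted p = 2.9e-04), and Lbr, a protein of the nuclear envelope, rose (1.06, adjusted p = 1.9e-06, and 1.31, adjusted p = 6.4e-08). The median log2 fold change of these genes was -0.32 from e16.5 to e18.5 and 0.24 from e18.5 to d2 in heterozygous cells, where that of the germ granule members was -0.60 and -0.55.

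The summed germ cell markers ran over 3062 to 3794, 2933 to 4262 and 2781 to 3195 CPM in heterozygous libraries from e16.5 to d2, and 3561 to 3819, 2782 to 3230 and 3052 to 4528 CPM in knockout libraries. Members of that list went different ways in heterozygous cells between e16.5 and d2, where 1 was called higher and 4 lower. Of all genes tested, 20.5% were called higher and 22.7% lower there. Dazl, a germ cell RNA-binding protein, went from a mean of 941 ± 129 to 1584 ± 129 CPM, and Dnd1, another, from 37.6 ± 8.25 to 9.21 ± 2.84 CPM. Some markers of other cells moved with age. The stroma genes summed to 177 to 342, 295 to 362 and 175 to 267 CPM in heterozygous and to 150.1 to 190.4, 298 to 320 and 224 to 361 CPM in knockout libraries. The 6 endothelial genes, all with a row, summed to 336 to 383, 178 to 203 and 106 to 151 CPM in heterozygous and to 406 to 445, 185 to 230 and 84.7 to 137 CPM in knockout libraries. In heterozygous cells Vwf carried most of that at e16.5, with a mean of 268 ± 41.8 CPM, but not at e18.5, at 65.5 ± 6.59. Cdh5 had means of 41.9 ± 6.62 and 40.5 ± 2.82. Between these ages 4 of the 6 had a log2 fold change above 0 and 2 below (median 0.43). Of the 6, 1 was called lower and 0 higher, against 10.2% and 7.63% of all genes tested. The 10 Sertoli genes summed to 44.9 to 50.3, 51.5 to 58.2 and 78.8 to 93.5 CPM in heterozygous libraries and to 28.5 to 37.4, 52.8 to 59.0 and 63.1 to 82.7 in knockout libraries. At e16.5 the Sertoli sums were lower and the endothelial sums higher in knockout libraries, without overlap between genotypes. All 10 stroma genes had a log2 fold change below 0 at that age (median -1.02), and 0 were called. The sum of macrophage markers (7 of 8 with a row) also differed by genotype, at e18.5, at 30.3 to 43.0 CPM in heterozygous and 89.7 to 109 CPM in knockout libraries. Of the 5 genes tested there, 2 were called higher and 0 lower in knockout cells, and 1 had a log2 fold change below 0 (-0.68). Of all genes tested, 2.06% were called higher and 0.271% lower at e18.5. The part of these cells in the falls of the Tudor genes, and in their genotype effects, was not tested.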

How the data were processed

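Bulk RNA-seq was measured in 20 libraries of sorted male germ cells. The authors deposited raw counts per gene symbol and per repeat name, in 1 table for each age. Per the submitters' processing notes STAR, featureCounts, edgeR and Bowtie were used with the mouse build mm9, while versions, roles, strand use and the treatment of reads with several positions are not given in the sources used here. The tables of repeat families were not used here. There were 24495 gene symbols for each embryonic age and 24341 for d2, and the 1217 repeat names were left out of gene tests.

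Genotype was tested within each age, while age and the interaction came from a joint fit of the 23853 shared symbols. Both used edgeR 4.0.16 (R 4.3.3). Genes passed filterByExpr with a minimum of 10 counts and a minimum total of 15. TMM scaling was followed by a quasi-likelihood F test and Benjamini-Hochberg adjustment over all genes tested, with a threshold of 0.05. Levels are CPM on the TMM scale of all 20 libraries, whereas genotype folds come from the fit of each age. Intervals are 95% intervals of the fitted log2 fold change.

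The members and all gene lists, markers and motifs were chosen with earlier results of these data known. Named genes were the members and Tex15, up to 3 called genes with the smallest p per further list and comparison, and the 3 genes most like each of the 3 members with the widest range, among genes whose log2 CPM averaged at least 3, with no symbol of the Gm or Rik kind. The markers Dazl, Dnd1, Vwf, Cdh5 and Insl3, and the overlapping genes Oaz3 and 4930518J20Rik, fall outside this rule. Exon lengths came from GENCODE M21 and promoter windows from RefSeq on GRCm38.p6, whose coordinates belong to that build and not to mm9. Alternatives were DESeq2 1.42.0, limma 3.58.1 voom with quality weights, median-ratio factors, gene totals, totals of genes and repeats, no filter, a filter at 1 CPM, a block for the replicate number, other sets of libraries in the fit, and leaving out each library.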

Additional observations from a re-analysis of the deposited data

Results flagged for a closer look

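Among the groups of 4 d2 libraries, 20 groups of values were tested for a library far from the rest, a test that marks about 1 in 20 groups by chance. Tdrd1 measured 790.4 CPM in the d2 knockout replicate 3, against 694 to 702 CPM in the other 3 knockout libraries. Tex15 measured 101.5 CPM in the library labelled Tex15-/- replicate 2 at d2, against 2.04 to 2.61 CPM in the other 3. The Tudor genes called at d2 were the same in number with and without that second library, 0 between genotypes and 6 from e18.5 to d2 in knockout cells.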

How the results depend on the processing

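The counts of Tudor genes called between genotypes and in the interactions stayed at 0 in every alternative run. The counts called with age ran over 7 to 9 where 9 were called and over 5 to 6 where 6 were called. The share of all genes called from e16.5 to e18.5 in heterozygous cells hung on single libraries. It was 17.8% with all, 21.2% without heterozygous e16.5 replicate 3, and 9.11% and 9.03% without replicates 1 and 2 of that group in turn. Over all results and alternatives, 1245 values were labelled the same and 39 lost the call. For a single gene, the same means that direction and side of the threshold were kept. For a count of called genes, also among the 1245, it means only a similar count. For Tdrkh from e18.5 to d2 in heterozygous cells a call was gained with totals of genes and repeats (log2 fold change 0.44, adjusted p = 0.0425). Another 32 turned in sign; none of these was called, and the cause was not tested.

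At e16.5 the log2 fold change, knockout over heterozygous, became -0.044 for Tdrd1 and -0.020 for Tdrd7 with gene totals, and -0.029 for Tdrd7 and -0.012 for Tdrd12 with voom. At d2 it became -0.0010 for Tdrd1 and -0.060 for Tdrd7 with gene totals, and -0.060 for Tdrd1, -0.12 for Tdrd7 and -0.055 for Tdrd12 with totals of genes and repeats. Leaving out 1 library at a time gave ranges that crossed 0: at e16.5 -0.010 to 0.16 for Tdrd7 and -0.056 to 0.30 for Tdrd12, at e18.5 -0.10 to 0.013 for Tdrd5, -0.25 to 0.043 for Tdrd6 and -0.24 to 0.073 for Tdrd9, and at d2 -0.11 to 0.0077 for Tdrd5, -0.028 to 0.077 for Tdrd7 and -0.17 to 0.028 for Tdrd9. From e18.5 to d2 totals of genes and repeats gave 0.090 for Tdrd5 in heterozygous cells, and 0.056, 0.17 and 0.14 for Tdrd5, Tdrd6 and Tdrkh in knockout cells. For Tdrd6 in heterozygous cells the same step gave -0.036 with DESeq2, -0.039 with median-ratio factors, -0.0025 with voom, -0.12 with the replicate block, and -0.13 to 0.20 without 1 library.

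Same-numbered libraries of the 2 genotypes correlated at -0.19 to 0.095. At e18.5 each heterozygous library correlated best with the knockout library of its own number (0.043 to 0.095). At the other ages this held for some libraries only. A block for the replicate number raised the share of genes called between genotypes at e18.5 from 2.33% to 3.31%. At d2 it lowered that share from 2.8% to 1.53%. Whether the numbers mark pairs was not settled. The block for the replicate number ended 1 call of a Tudor gene, that of Tdrd12 from e16.5 to d2 in heterozygous cells (log2 fold change -0.41, adjusted p = 0.092). Gene totals moved the median of all genes by up to 0.23 (knockout cells, e16.5 to e18.5), and totals of genes and repeats by 0.35 (e18.5 to d2) and 0.40 (e16.5 to d2) in heterozygous cells. Of the members Tdrd6 at e16.5 rested on the fewest counts, 7 to 92 per library.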
